A study of Saccharomyces cerevisiae with 8 samples.

Results

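Of the 1650 Xrn1-sensitive unstable transcripts (XUTs) measured in budding yeast, 1004 were at least 2-fold higher in upf1 mutant cells than in wild-type (WT) cells, both given solvent alone. They were chosen by 2 conditions on the authors' group means, a mean over the 4 groups of at least 0.02 and a ratio of (upf1 with DMSO + 0.005) to (WT with DMSO + 0.005) of at least 2. Levels are the authors' normalized read densities, which are reads per length of transcript on a library scale that held the small nucleolar RNAs (snoRNAs) level. The level condition was met by 1472 XUTs, of which the remaining 468 had a ratio under 2 and are called the other XUTs. The last 178 XUTs were under the level condition, 48 of them with a ratio of at least 2.

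XUTs are non-coding RNAs, many of them antisense to genes, that accumulate when Xrn1, the main cytoplasmic 5′ to 3′ exonuclease, is missing. Decay by Xrn1 follows removal of the 5′ cap, and nonsense-mediated decay (NMD) is one route to decapping. In NMD the RNA helicase Upf1, with Upf2 and Upf3, acts on RNAs on which a translating ribosome has stopped far from the normal end of a message. Cycloheximide (CHX) stalls elongating ribosomes and thereby stops NMD as well. The series asks whether translation and Upf1 take part in the decay of such cytoplasmic non-coding RNAs.

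All strains were haploid BY4741 of mating type a, with the markers his3Δ1, leu2Δ0, met15Δ0 and ura3Δ0. The mutant also carried upf1::kanMX4, a replacement of the UPF1 gene by a drug resistance cassette. The 4 groups were upf1 with CHX, upf1 with DMSO, WT with CHX and WT with DMSO, each with 2 replicates described as biological in the series design. Cells in rich medium (YPD) at 30 °C were treated at an OD600 of 0.5 for 15 min with 100 µg/ml CHX or with an equal volume of the solvent dimethyl sulfoxide (DMSO), and total RNA with an added external standard was depleted of ribosomal RNA before stranded sequencing.

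NAM7, the gene of Upf1 (chromosome XIII, 426712 to 429627, build R64), fitted the genotype labels. It had densities of 0.0373 and 0.0350 in upf1 with CHX and 0.0216 and 0.0239 in upf1 with DMSO, against 1.48 and 1.74 in WT with CHX and 0.534 and 0.588 in WT with DMSO. LEU2 and URA3, deleted in the strain, had at most 2 reads and at most 1 read in any library. STE2, the pheromone receptor gene of a cells, had 6380 to 27726 reads, and STE3, its counterpart in alpha cells, had 22 to 518. The libraries held 9087912 to 25637850 reads, recovered as whole numbers from the densities. Replicates differed by more than sampling noise in every group, with a chi-square per feature of 3.28 to 15 where sampling alone gives 1.

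With DMSO, the state the choice rests on, the 1004 XUTs had a median density of 0.0470 and 0.0529 in the upf1 libraries with DMSO, against 0.0103 and 0.0111 in the WT libraries with DMSO. In the CHX libraries the medians were 0.0977 and 0.115 in upf1, against 0.0756 and 0.0737 in WT. Both DMSO libraries of WT were thus the lowest, and both CHX libraries of upf1 the highest. The other XUTs had medians of 0.0626 and 0.0725 in upf1 with CHX, then 0.0263 and 0.0279 in upf1 with DMSO, 0.0738 and 0.0688 in WT with CHX and 0.0172 and 0.0174 in WT with DMSO. Their CHX medians overlapped between the genotypes.

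**Figure D1:**
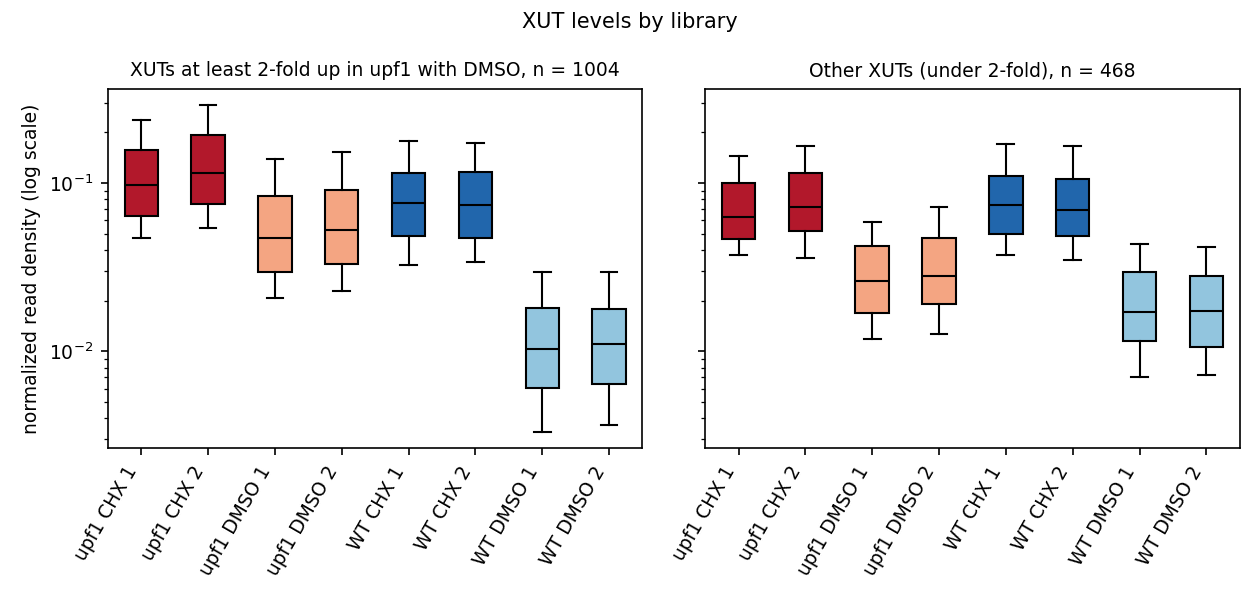
Normalized read density (log scale) by library for the 1004 XUTs at least 2-fold up in upf1 with DMSO (left) and the 468 other XUTs (right). Lines are medians, boxes quartiles and whiskers the 10th and 90th percentiles over XUTs. In the left panel the medians run from 0.115 in an upf1 library with CHX to 0.0103 in a WT library with DMSO, where the rule favours low values.

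The XUTs were scarce beside messenger RNAs (mRNAs). They took 0.840% and 0.848% of the reads in upf1 with CHX, then 0.805% and 0.786% in upf1 with DMSO, 0.640% and 0.608% in WT with CHX, and 0.210% and 0.198% in WT with DMSO. Of the 1004, 7 reached the median mRNA density of 0.884 in upf1 with CHX, 16 reached that of 0.364 in upf1 with DMSO, 7 reached that of 0.678 in WT with CHX, and 5 reached that of 0.210 in WT with DMSO. Those 5 were XUT1813, XUT0463, XUT0466, XUT0467 and XUT1498, the last named after its values were seen.

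Depth set the precision. The median XUT of the 1004 had 87.5 and 31 reads in upf1 with CHX, then 62.5 and 43.5 in upf1 with DMSO, 35.5 and 36.5 in WT with CHX, and 8 and 15 in WT with DMSO. In WT with DMSO 39 and 19 had no read in the first and the second library, and 10 had none in either, so ratios against that group are imprecise. At least 10 reads over both of these libraries were found for 801. Replicates of a XUT differed by a median absolute log2 value of 0.28 in upf1 with CHX, 0.21 in upf1 with DMSO, 0.18 in WT with CHX and 0.23 in WT with DMSO. In the upf1 groups replicate 2 was the higher for 81.6% of the XUTs with CHX and 70.4% with DMSO. In WT these shares were 50.6% and 54%. The shift was not particular to XUTs. For protein-coding genes the shares were 91.2% and 86.1% in upf1, and 75.6% and 72.3% in WT, with CHX and with DMSO.

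The ratio that chose the XUTs is given as a description only. It had a median of 3.39 and quartiles of 2.63 and 4.74, against medians of 1.52 for the other XUTs and 1.48 for protein-coding genes. The highest was 22.3, at XUT0788, which had 107 and 59 reads in upf1 with DMSO and 0 and 1 in WT with DMSO. Just inside the threshold lay XUT0939 (2.001), XUT0260 (2.002) and XUT0821 (2.003), and just outside it lay XUT0804, XUT0031 and XUT0957, the last at 1.996. On the level condition, XUT1478 (0.0202) and XUT1380 (0.0203) were just inside, and XUT1608 (0.01996) and XUT1379 (0.0198) just outside. Libraries of the 2 genotypes with DMSO did not overlap for 1001 of the 1004, where 80.1% of all features tested were higher and 3.03% lower in this way. The 3 exceptions, XUT1074, XUT0538 and XUT1620, were named after their values were seen.

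The most abundant of these XUTs was XUT1813, with a recovered length of 1468 nt. Its densities were 9.03 and 10.9 in upf1 with CHX, then 5.65 and 6.71 in upf1 with DMSO, 6.82 and 6.44 in WT with CHX, and 1.93 and 1.94 in WT with DMSO. The WT libraries with DMSO stood alone at the bottom, and upf1 with DMSO overlapped WT with CHX. Next came XUT0467 (5302 nt), with 2.32 and 2.75 in upf1 with CHX, then 1.01 and 1.19 in upf1 with DMSO, 1.61 and 1.84 in WT with CHX, and 0.354 and 0.365 in WT with DMSO. Here the groups did not overlap, and WT with CHX lay above upf1 with DMSO.

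XUT0961 (2885 nt) had the reverse order of the middle groups. Its densities were 1.55 and 1.97 in upf1 with CHX and 1.02 and 1.16 in upf1 with DMSO, against 0.719 and 0.806 in WT with CHX and 0.125 and 0.128 in WT with DMSO. XUT0083 (1050 nt) shared that order, but its 2 upf1 groups overlapped. It had 1.23 and 1.44 in upf1 with CHX and 1.09 and 1.28 in upf1 with DMSO, against 0.750 and 0.818 in WT with CHX and 0.185 and 0.203 in WT with DMSO. XUT0466 (508 nt) and XUT0463 (240 nt) completed the 6 most abundant, with mean densities over the groups of 0.808 and 0.621. Whether XUT0463, XUT0466 and XUT0467 overlap each other or a gene was not analysed here, and reads of features on the same strand could be shared or lost in counting.

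**Figure D2:**
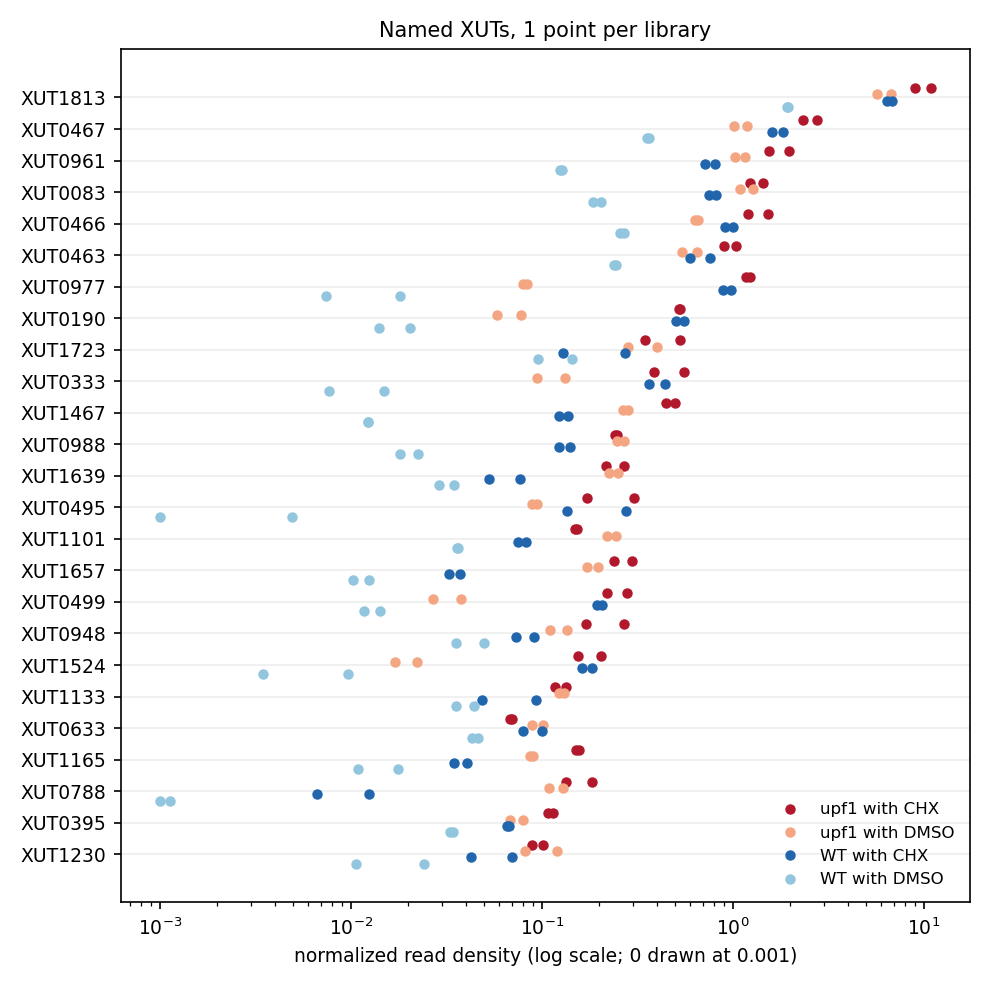
Normalized read density (log scale) of named XUTs, 1 point per library, ordered by mean density; values of 0 are drawn at 0.001. XUT1813 is highest, at 9.03 and 10.9 in upf1 with CHX; XUT1101 and XUT0633 are the cases in which both upf1 libraries with CHX lie below both with DMSO and the test was passed.

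The order of the 4 groups was not the same for all 1004 XUTs. The choice fixed WT with DMSO below upf1 with DMSO, so the place of the CHX groups is what the rule left free. For 668 XUTs (66.5%) the means ran, from low to high, WT with DMSO, upf1 with DMSO, WT with CHX, upf1 with CHX. For 238 (23.7%) they differed from this only in that upf1 with DMSO stood above WT with CHX, and for 88 (8.76%) WT with CHX was the highest of all. WT with CHX exceeded upf1 with DMSO for 756 of the 1004 (75.3%) and for 461 of the 468 other XUTs (98.5%), a difference that the ratio of the rule favours. For 637 of the 1004 both WT libraries with CHX lay above both upf1 libraries with DMSO, and for 162 both lay below, where 82.9% and 5.15% of all features did. For the other XUTs these numbers were 434 and 1 of 468. The rule chose XUTs high in the upf1 libraries with DMSO, so nothing is read from these shares.

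The comparison of upf1 with WT in CHX asks whether loss of Upf1 still shows once translation is blocked. Its 4 libraries took no part in the ratio of the rule, but they entered the level condition. A XUT near that limit could thus be chosen through a high level in upf1 with CHX. Of the 372 XUTs with a mean density of 0.02 to 0.05, 20.2% were called higher in the test below. The 1004 XUTs were higher in upf1 by a median log2 change of 0.50, with a standard deviation (SD) of 0.18 between the medians of the 2 upf1 libraries (0.39 and 0.64, n = 2). The median was -0.03 for the other XUTs, 0.40 for SUTs (stable unannotated transcripts, another class of non-coding RNA) and 0.32 for protein-coding genes. In limma's moderated test on log2(density + 0.005488), adjusted by Benjamini-Hochberg over 11700 features at a threshold of 0.05, 311 of the 1004 (31.0%) were higher, where 16.5% of all features were. None was lower, where 1.44% of all features were. Unadjusted limma p-values under 0.05 were reached by 507 in either direction, where 4208 of all 11700 features reached them. Of the 507, 2 were lower, XUT0193 and XUT1312. A weighted test of the recovered reads (voom) called 380 (37.8%) higher and 0 lower, where 24.5% of all features were higher and 1.74% lower. Of the 468 other XUTs, limma called 9 higher (1.92%) and 14 lower (2.99%), and voom 10 and 14. Both upf1 libraries lay above both WT libraries for 708 of the 1004 and below them for 27, where 52.6% and 11.1% of all features did.

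The median of the 1004 was 0.636 without replicate 1 of upf1 with CHX and 0.388 without its replicate 2. It was 0.515 without replicate 1 of WT with CHX and 0.499 without its replicate 2. The number called higher changed with the CHX library left out, in fits where 1 group held only 1 library. It was 388 without replicate 1 of upf1 with CHX and 39 without its replicate 2, the library of 9087912 reads, in which most features were higher. It was 69 without replicate 1 of WT with CHX and 145 without replicate 2. After the libraries were rescaled on mRNAs, with a median of ratios taken on 5817 protein-coding genes, 103 were higher and 5 lower, against 5.91% and 9.29% of all features. The median of the 1004 was then 0.13, and that of the other XUTs -0.36. Fewer cells of a type and less RNA per cell cannot be told apart in such bulk samples, nor can a change of all snoRNAs and an opposite change of everything else.

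The size of the effect in CHX followed the ratio with DMSO, although the 2 share no library. XUTs with a ratio of 2 to 3 (393) had a median log2 change in CHX of 0.27, and 8.91% of them were higher. Over all features the median was 0.26 and 16.5% were higher, so this lowest class did not stand above the background. The median was 0.48 for ratios of 3 to 4 (261 XUTs), 0.70 for 4 to 6 (229 XUTs), 0.97 for 6 to 8 (85 XUTs) and 1.16 for 8 or more (36 XUTs), and the share that was higher was 23.4%, 52.0%, 75.3% and 88.9% in these classes. The order held in each upf1 library with CHX set against the WT mean, with medians of 0.18 to 1.05 in replicate 1 and 0.40 to 1.33 in replicate 2. It went on below the threshold, where other XUTs with a ratio of 1.5 to 2 (242) had a median of 0.07, those of 1 to 1.5 (184) of -0.11, and those under 1 (42) of -0.27. Over the 1004 XUTs Spearman's rho was 0.56 and Pearson's r 0.59, a description in which every point comes from the same 8 libraries. On the mRNA scale the medians of the 5 classes from 2 up were -0.075, 0.13, 0.33, 0.59 and 0.78, so the direction of the lowest class depends on the scale. Median mean density also differed between the classes, from 0.0464 in the lowest to 0.106 in the highest, and its part in the shares was not tested.

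**Figure D3:**
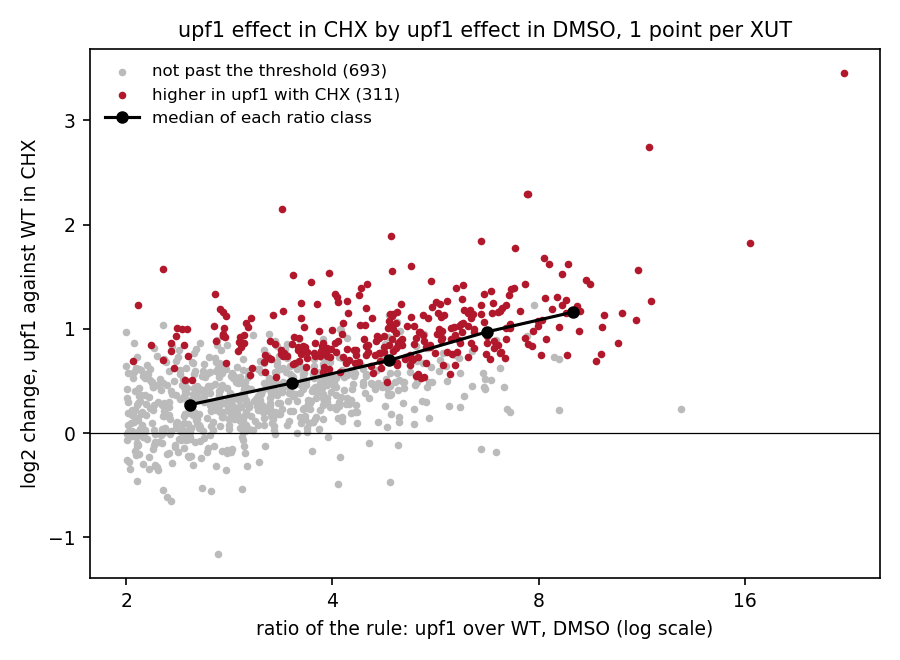
log2 change of upf1 against WT in CHX (vertical) by the ratio of the rule in DMSO (horizontal, log scale), 1 point per XUT; red points (311) were higher in upf1 by limma and grey points (693) did not pass. Black points are the class medians, from 0.27 at ratios of 2 to 3 to 1.16 at 8 or more.

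XUT0788 (456 nt) had the largest change in CHX. Its densities were 0.183 and 0.133 in upf1 with CHX, against 0.00667 and 0.0125 in WT with CHX, from 106 and 23 reads against 2 and 4. The log2 change was 3.45, with a standard error (SE) of 0.26 (limma adjusted p = 8.62e-05) and depends on the pseudocount, since WT reads were so few. XUT1657 (1299 nt) rested on more reads, 391 and 146 in upf1 with CHX, against 28 and 34 in WT with CHX. Its densities were 0.237 and 0.297 in upf1, against 0.0328 and 0.0373 in WT, a log2 change of 2.74 with an SE of 0.19 (limma adjusted p = 8.62e-05). Neither pair of groups overlapped.

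XUT1165 (351 nt) had densities of 0.157 and 0.151 in upf1 with CHX, against 0.0347 and 0.0406 in WT with CHX, a log2 change of 1.89 with an SE of 0.21 (limma adjusted p = 0.00128). XUT1639 (5368 nt) had 0.217 and 0.271 in upf1 with CHX, against 0.0530 and 0.0765 in WT with CHX, a log2 change of 1.84 with an SE of 0.21 (limma adjusted p = 0.00134). XUT1467 (1012 nt) had 0.449 and 0.499 in upf1 with CHX, against 0.123 and 0.137 in WT with CHX, a log2 change of 1.82 with an SE of 0.16 (limma adjusted p = 0.00035). These 5 XUTs stayed past the threshold whichever of the 8 libraries was left out, and all 5 passed on the mRNA scale, with log2 changes of 2.91, 2.31, 1.48, 1.44 and 1.43.

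Among XUTs of at least the median level (0.0617 as a mean of the 4 groups), XUT0788, XUT1467, XUT0495, XUT1612, XUT1657 and XUT1185 had the 6 highest ratios in DMSO. Of these 6, 5 were higher in CHX too, where 16.5% of all features were. That level includes upf1 with CHX, so the list is not independent of the test and nothing is read from this number. XUT1612 had a log2 change of 1.27 with an SE of 0.19 (limma adjusted p = 0.00338) and XUT1185 of 1.57 (SE 0.27, limma adjusted p = 0.00596), the second no longer past the threshold without replicate 2 of upf1 with CHX. XUT0495, a XUT of 105 nt, was the exception at 0.23 (SE 0.38, limma adjusted p = 0.677), with 23 and 12 reads in upf1 with CHX, against 19 and 10 in WT with CHX. Its groups overlapped. The 6 most abundant XUTs had smaller changes in CHX. XUT0961 was at 1.19 (limma adjusted p = 0.00236), XUT0083 at 0.76 (0.0106), XUT1813 at 0.58 (0.0187), XUT0467 at 0.55 (0.0305) and XUT0466 at 0.51 (0.0432), while XUT0463 at 0.52 did not pass (0.0556). XUT1813, XUT0467 and XUT0466 were at 0.20, 0.18 and 0.13 on the mRNA scale and no longer passed (limma adjusted p = 0.0981, 0.0917 and 0.238). Without replicate 2 of upf1 with CHX or without replicate 1 of WT with CHX, XUT0961 alone of the 6 was called, and XUT1813 was at 0.447 and 0.625 (limma adjusted p = 0.113 and 0.103). Of the 8 fits that leave out a library, XUT0467 passed in 3 and XUT0466 in 1.

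CHX in WT cells asks what a translation block does while Upf1 is present. Every one of the 1004 XUTs had a positive log2 change on the deposited scale, where 11578 of 11700 features had. On the mRNA scale 964 of the 1004 were positive, where 7771 of 11590 features were. The deposited median was 2.24 (SD 0.01 between the medians of the 2 CHX libraries, n = 2), against 1.71 for the other XUTs, 1.96 for SUTs and 1.55 for protein-coding genes. The rule favours low values in the WT libraries with DMSO that this comparison uses, so the larger median of the 1004 is not independent of the choice. limma called 998 higher and 0 lower, where 95% of all features were higher and 0.0769% lower. No XUT had a negative change at an unadjusted p under 0.05. voom called 1000 higher and 0 lower, where 95.6% of all features were higher and 0.0598% lower. The CHX libraries lay above the DMSO libraries for 1000 of the 1004, where 96.8% of all features did. On the mRNA scale 791 were higher and 6 lower, with a median of 1.05, where 44% of all features were higher and 19.1% lower.

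The largest change in WT was at XUT0977 (256 nt), at 5.74 (SE 0.24, limma adjusted p = 6.06e-08), which also had the largest change in upf1, at 3.795 (SE 0.24, limma adjusted p = 1.61e-06). Its densities were 1.17 and 1.23 in upf1 with CHX, then 0.0834 and 0.0795 in upf1 with DMSO, 0.980 and 0.886 in WT with CHX, and 0.00746 and 0.0182 in WT with DMSO. Each CHX group was far above its DMSO group. XUT0190 (203 nt) was also among the 4 largest in both genotypes, with 0.532 and 0.521 in upf1 with CHX, then 0.0782 and 0.0585 in upf1 with DMSO, 0.554 and 0.506 in WT with CHX, and 0.0141 and 0.0204 in WT with DMSO. The CHX libraries of the 2 genotypes overlapped. XUT0333 changed by 4.64 in WT (SE 0.26, limma adjusted p = 1.77e-07). XUT0495 had 29 reads over the WT libraries with CHX, against 1 over those with DMSO, which puts the densities at a ratio of 63.7 (95% interval 10.6 to 2601, exact binomial, counting error only).

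The smallest changes in WT among XUTs of at least the median level were at XUT1723, XUT1133, XUT0948 and XUT0395. XUT1723 had 0.274 and 0.129 in WT with CHX, against 0.145 and 0.0953 in WT with DMSO. Those groups overlapped, and its log2 change of 0.66 did not pass (SE 0.34, limma adjusted p = 0.085), though it did without replicate 2 of WT with CHX (1.19) or replicate 1 of WT with DMSO (0.94). XUT1133 was at 0.70 (limma adjusted p = 0.022), a call lost without replicate 1 of WT with CHX (0.27) or replicate 2 of WT with DMSO (0.55), XUT0948 at 0.87 (0.00501) and XUT0395 at 0.88 (0.000496). The 4 XUTs had log2 values of -0.83, -0.70, -0.54 and -0.51 on the mRNA scale, so the direction of all 4 depends on the scale. XUT1723 was 1 of the 6 XUTs not called in WT.

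CHX in upf1 cells asks what a translation block does once Upf1 is missing. The median log2 change of the 1004 was 0.91 (SD 0.18 between the medians of the 2 CHX libraries, n = 2), against 1.18 for the other XUTs, 0.88 for SUTs and 1.14 for protein-coding genes. This comparison uses the upf1 libraries with DMSO, where the rule favours high values. limma called 868 higher (86.5%) and 2 lower, where 89% of all features were higher and 0.231% lower. voom called 899 higher and 1 lower, where 90.6% of all features were higher and 0.197% lower. The CHX libraries lay above the DMSO libraries for 947 of the 1004, where 93.8% of all features did. A rise of at least 2-fold on the log2(density + 0.005488) scale was seen for 423 of the 1004 (42.1%), where 56.2% of all features rose as much. For CHX in WT it was seen for 983 (97.9%), where 83.9% of all features did. The rule chose high values in upf1 with DMSO and low ones in WT with DMSO, so it bears on both shares and nothing is read from their difference. The direction of the median turned on the mRNA scale, to -0.21. Of the 1004, 660 were negative and 344 positive there, where 6219 and 5371 of 11590 features were. On this scale 51 of the 1004 were called higher and 180 lower, against 16% and 21.6% of all features.

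**Figure D4:**
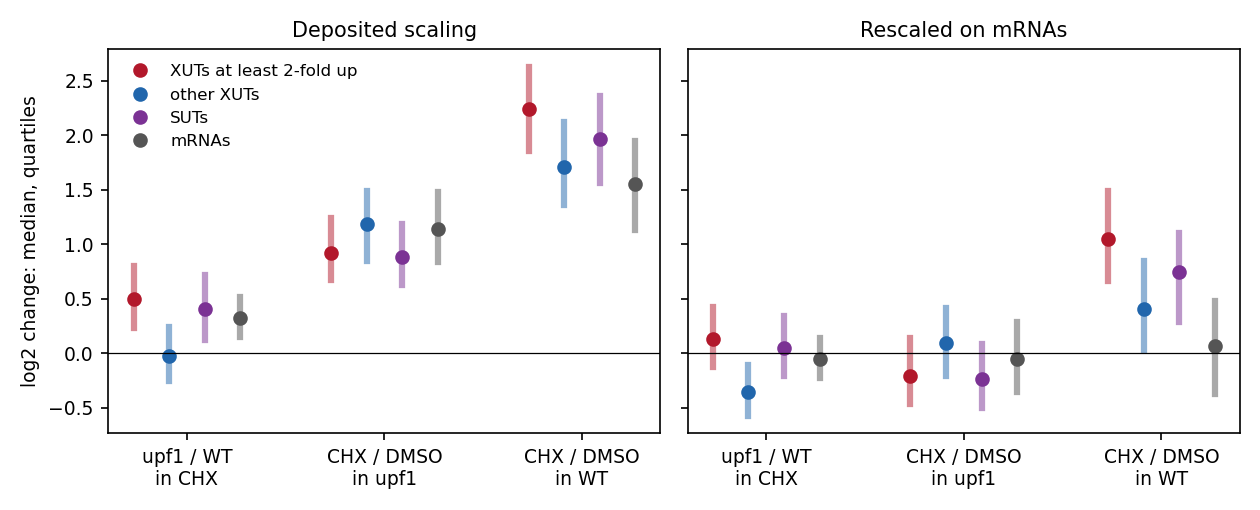
Median log2 change (points) with quartiles (bars) over XUTs at least 2-fold up, other XUTs, SUTs and mRNAs in 3 comparisons, on the deposited scale (left) and after rescaling on mRNAs (right). The XUTs at least 2-fold up have medians of 0.50, 0.91 and 2.24 on the left and of 0.13, -0.21 and 1.05 on the right.

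After XUT0977, the largest changes with CHX in upf1 were at XUT1524 (2.87, SE 0.26, limma adjusted p = 6.91e-06), XUT0190 (2.86, SE 0.20, adjusted p = 2.29e-06) and XUT0499 (2.75, SE 0.21, adjusted p = 3.19e-06). XUT0499 (1542 nt) had densities of 0.220 and 0.278 in upf1 with CHX, then 0.0270 and 0.0380 in upf1 with DMSO, 0.195 and 0.207 in WT with CHX, and 0.0142 and 0.0117 in WT with DMSO. Its ratio in the rule was 2.08, near the lower limit. XUT1524 (297 nt) was likewise near it at 2.13.

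At the other end, XUT1101 and XUT0633 fell with CHX in upf1. XUT1101 (2136 nt) had 0.150 and 0.154 in upf1 with CHX, against 0.220 and 0.245 in upf1 with DMSO, or -0.59 in log2 change with an SE of 0.16 (limma adjusted p = 0.00548). In WT it had 0.0755 and 0.0828 with CHX, against 0.0366 and 0.0358 with DMSO, a log2 change of 1.02 with an SE of 0.16 (limma adjusted p = 9.81e-05). Neither pair overlapped, and the highest group was upf1 with DMSO. In CHX it was higher in upf1 than in WT by 0.89 (limma adjusted p = 0.00762), a call lost without replicate 1 of WT with CHX (adjusted p = 0.0777) or replicate 2 of upf1 with CHX (0.0518).

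XUT0633 (698 nt) had 0.0701 and 0.0682 in upf1 with CHX, against 0.0894 and 0.102 in upf1 with DMSO, or -0.44 in log2 change with an SE of 0.18 (limma adjusted p = 0.0425). That call was lost in each of the 8 fits that left out a library, and voom did not make it. In WT it had 0.1002 and 0.0797 with CHX, against 0.0465 and 0.0429 with DMSO, a log2 change of 0.92 with an SE of 0.18 (limma adjusted p = 0.000529). XUT0988 (-0.08, limma adjusted p = 0.678) and XUT1230 (-0.06, limma adjusted p = 0.859) were the next smallest among XUTs of at least the median level and did not pass. Scarcer XUTs had values between these and XUT0633, the lowest of them XUT0263 (-0.35, limma adjusted p = 0.314), named after its value was seen. XUT0988 had 0.242 and 0.249 in upf1 with CHX, then 0.2484 and 0.2698 in upf1 with DMSO, 0.141 and 0.123 in WT with CHX, and 0.0224 and 0.0182 in WT with DMSO, so its upf1 groups overlapped. On the mRNA scale XUT1101 and XUT0633 were at -1.76 and -1.55 with CHX in upf1, and at -0.38 and -0.50 with CHX in WT.

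Length was not used in the rule and differed between the sets. The 1004 had a median recovered length of 751 nt, with a range from 103 nt (XUT1726) to 5923 nt (XUT0860), against 421 nt for the other XUTs. At least 1000 nt was reached by 36.6% of them and by 8.76% of the other XUTs. Of XUTs that met the level condition, 53.2% of those under 300 nt had a ratio of at least 2, 54% from 300 and below 500 nt, 68.4% from 500 and below 1000 nt, 87.8% from 1000 and below 2000 nt and 95.1% from 2000 nt up. SUTs of the same level ran in the same way, at 33.7%, 47%, 71.8%, 91% and 97.3% in these classes. Protein-coding genes did not, at 46.8%, 32.6%, 19.7%, 22.8% and 21.1%.

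The CHX libraries took no part in the ratio, but they entered the level condition. Over all XUTs that met that condition, the median log2 change of upf1 against WT in CHX was 0.15 in the shortest class. It was 0.22, 0.29 and 0.53 in the next classes, and 0.54 in the longest. SUTs ran through 0.12, 0.20, 0.35, 0.59 and 0.59. For protein-coding genes the values were 0.25, 0.24, 0.24, 0.33 and 0.38. On the mRNA scale XUTs ran through -0.20, -0.14, -0.056, 0.16 and 0.17, so the direction below 1000 nt depends on the scale. Longer features hold more reads at the same density, and the part of this in the length classes was not tested.

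**Figure D5:**
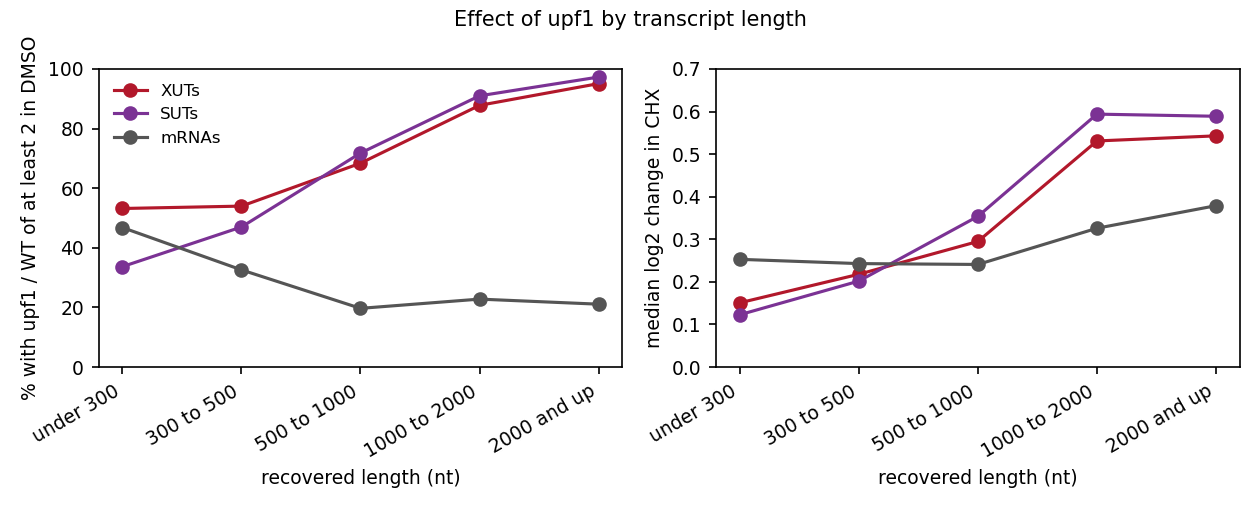
Share of features with an upf1 to WT ratio of at least 2 in DMSO (left, %) and median log2 change of upf1 against WT in CHX (right) by class of recovered length, for XUTs, SUTs and mRNAs with a mean density of at least 0.02. XUTs run from 53.2% under 300 nt to 95.1% at 2000 nt and up, while mRNAs lie between 19.7% and 46.8%.

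The genes of the decay machinery that XUTs meet were measured in the same libraries, as a list of 29 that covers NMD, decapping, the 5′ exonucleases, the Ski complex and helicases tied to non-coding RNA decay. In CHX, limma called 5 of the 29 higher in upf1 than in WT and 1 lower, where 16.5% of all features were higher and 1.44% lower, and the median log2 change was 0.30 beside 0.26 over all features. The number of higher genes is thus near the background, and nothing particular to the list is read from it. The one that was lower was NAM7, at -5.27 (SE 0.16, limma adjusted p = 4.42e-08). Higher were EBS1, a factor tied to NMD, at 1.11 (adjusted p = 0.00499), NMD2, which encodes Upf2, at 0.87 (0.0172), SKI2 and SKI3, of the complex that feeds RNA to the cytoplasmic exosome, at 0.66 (0.0323) and 0.62 (0.0413), and DCS1, the scavenger decapping enzyme, at 0.61 (0.0243).

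EBS1 had densities of 1.56 and 2.09 in upf1 with CHX, against 0.745 and 0.924 in WT with CHX, and NMD2 had 0.674 and 0.992 in upf1, against 0.406 and 0.490 in WT. Neither overlapped. UPF3, at 0.03 (limma adjusted p = 0.91), XRN1, at 0.34 (0.144), and DCP2, the decapping enzyme, at 0.33 (0.141), did not pass. Only EBS1 and NMD2 of the 29 were higher on the mRNA scale, where 6 were lower, against 5.91% and 9.29% of all features. The number called higher on the deposited scale was 0 without replicate 2 of upf1 with CHX, 0 without replicate 1 of WT with CHX, 2 without its replicate 2 and 14 without replicate 1 of upf1 with CHX. With CHX, 28 of the 29 were higher in upf1 and 29 in WT, where 89% and 95% of all features were. None of the 29 was lower by limma, by voom or at an unadjusted p under 0.05 in either genotype. After rescaling on mRNAs 7 were higher and 9 lower in upf1, where 16% and 21.6% of all features were, and 6 were higher and 14 lower in WT, where 44% and 19.1% were.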

How the data were processed

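The authors deposited 1 table that lists 11993 features, each with a signal (normalized read density) in every library and as a group mean. The tools named in the submitters' processing notes are DESeq2, featureCounts 2.0.0, HISAT2 2.2.0 and Trim Galore; neither the scaling of the densities nor the annotation counted is given in the sources used here. Values were whole multiples of 1 read at 1 length per feature for all 11986 features above 0 (within 0.001 reads), which gave reads and lengths; where all reads of a feature share a factor, both are low by it. Recovered depth was 9087912 to 25637850 reads per library, so low XUTs are imprecise, and intervals cover counting error only.

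Single-replicate densities were analysed as log2(density + 0.005488), the pseudocount being the 5th percentile of the values above 0, which understates changes of low features. Features with a lower mean were left out (293), and 11700, with all 1004 XUTs, were fitted in limma 3.58.1 (R 4.3.3) with group means, a mean-variance trend and 4 residual degrees of freedom. Adjusted p-values are limma's, by Benjamini-Hochberg over all features, with a threshold of 0.05, in 3 comparisons; all p-values are two-sided. Upf1 against WT in DMSO chose the XUTs and was not tested for them, nor was the difference of CHX effects. The fit was tested on simulated data with 200 changed features. Standard deviations (SD) are between the medians of the 2 libraries of the first group in a comparison and leave out the spread of the other group. The p-values rest on a variance between replicates that was pooled over all groups and moderated towards the trend over features.

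The members and lists were chosen with earlier results of these data known. Named XUTs are the 6 most abundant and, among those of at least the median level, the 6 with the highest ratios, the 5 largest calls each way in upf1 against WT in CHX (none was lower), the 4 largest and 4 smallest changes with CHX in each genotype, and those next to the thresholds. Alternatives were other scalings, pseudocounts, filters, a replicate block, fits without each library and, chosen after seeing the data, voom on recovered reads. XUT coordinates and sequences were not used here. Replicate numbers were not used to pair the libraries in the main fit.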

Additional observations from a re-analysis of the deposited data

Results flagged for a closer look

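XUT1101 moved in opposite directions with CHX, at a log2 change of -0.59 in upf1 and 1.02 in WT, each with non-overlapping libraries. The difference between the genotypes was not tested, because it holds the contrast that chose the XUTs. XUT0633 did the same, at -0.44 in upf1 and 0.92 in WT, also not tested. On the mRNA scale both were lower with CHX in WT too, at -0.38 and -0.50. For XUT0633 the effect of upf1 in CHX, -0.35, was opposite to that in DMSO, whose direction the choice fixed, and the difference was not tested. NAM7 changed less with CHX in upf1 than in WT, with a difference of -0.95 in log2 change (limma interaction adjusted p = 0.0125). The upf1 side rests on 161 and 45 reads with CHX and 134 and 96 with DMSO. This gene is replaced in the mutant, so the difference does not measure how its mRNA responds to CHX. The recovered length of 3401 nt is more than the gene interval given above, and where these reads lie was not examined.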

How the results depend on the processing

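Deposited densities hold snoRNAs level; the cause of each shift below was not tested. Rescaling on mRNAs gave medians for the 1004 XUTs of 0.13 (upf1 against WT in CHX), -0.21 (CHX in upf1), 1.05 (CHX in WT) and 1.32 (upf1 against WT in DMSO), and for the other XUTs of -0.36, 0.10, 0.40 and 0.054. It called 103 higher and 5 lower, 51 and 180, and 791 and 6 in the 3 comparisons tested; decay genes gave 2 and 6, 7 and 9, and 6 and 14. voom with the median of ratios over all features gave 192 and 9, 80 and 316, and 610 and 12, and for decay genes 6 lower in upf1 against WT in CHX, 7 and 10, and 1 and 19. With the deposited scaling voom called 1 XUT lower with CHX in upf1, where 0.197% of all features were lower. It called 9 decay genes higher in upf1 against WT in CHX, where 24.5% of all features were higher.

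Of the 27 XUTs named for their level or changes, 16 turned on the mRNA scale with CHX in upf1, 9 with CHX in WT and 5, none of them called on either scale, in upf1 against WT in CHX. With CHX in upf1 they were XUT1813 (-0.53), XUT0467 (-0.014), XUT0961 (-0.53), XUT0083 (-1.04), XUT0466 (-0.15) and XUT0463 (-0.51), and under voom with the median of ratios -0.55, -0.037, -0.56, -1.06, -0.18 and -0.52. The other 10 were XUT0788 (-0.78), XUT1467 (-0.43), XUT1612 (-0.67), XUT1657 (-0.67), XUT1185 (-0.35), XUT1165 (-0.40), XUT1639 (-1.16), XUT1723 (-0.85), XUT0948 (-0.40) and XUT0395 (-0.58) on the mRNA scale. With CHX in WT they were XUT1165 (-0.089), XUT1639 (-0.49), XUT1723 (-0.83, and -1.07 under voom), and XUT0463 (-0.062), XUT1133 (-0.70), XUT0948 (-0.54), XUT0395 (-0.51), XUT1101 (-0.38) and XUT0633 (-0.50), the last 6 under voom at -0.33, -1.005, -0.90, -0.82, -0.67 and -0.80, with XUT1813 at -0.032 under voom alone.

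Without a pseudocount, over XUTs with reads in every library, the medians were 2.73 (CHX in WT) and 2.24 (upf1 against WT in DMSO) for the 1004, and 1.32 (CHX in upf1), 1.98 and 0.76 for the other XUTs. A pseudocount 4 times larger, and a fit of only the 4 libraries compared, each called 1 XUT lower in upf1 against WT in CHX, and the second called 1 lower with CHX in upf1. The choice itself gave 608 XUTs with an offset of 0.02 and 632 at a mean density of at least 0.05, against 1004. On the mRNA scale it gave 673, so many of the 1004 were not 2-fold higher there. Setting the lowest upf1 library with DMSO over the highest WT library with DMSO gave 813. Without the offset the choice gave 1130.

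Leaving out each library in turn gave 39 to 388 XUTs higher and 0 to 4 lower in upf1 against WT in CHX, 687 to 881 higher and 1 to 2 lower with CHX in upf1, 993 to 999 higher with CHX in WT, 947 to 1038 XUTs chosen, and 0 to 14 decay genes higher in upf1 against WT in CHX. The medians ranged over 0.39 to 0.64, 0.80 to 1.05, 2.21 to 2.25 and 1.69 to 1.78 for the 1004, and -0.11 to 0.05, 1.08 to 1.23, 1.70 to 1.74 and 0.53 to 0.66 for the other XUTs. Where a group was left with 1 library, it was assumed to vary like the others.

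Deviations of same-numbered libraries correlated over features at -0.02 to 0.08. Such a correlation leaves out a shift of a whole library, so it cannot exclude a shift shared by libraries of the same number. Replicate 2 was the higher for 72.3% to 91.2% of protein-coding genes in the 4 groups. With the replicate block 375, 878 and 998 XUTs were higher in the 3 comparisons, against 311, 868 and 998 without it. For decay genes in upf1 against WT in CHX the block gave 14 higher, against 5 without it. The planned count-model alternatives were not run, since the deposited values are densities. The few reads in WT with DMSO limit what can be said of low XUTs.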
